A study of Arabidopsis thaliana with 2 samples.

Results

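Among the genes lower in *cep1* stems than in wild-type (WT) stems were 23 genes of carbohydrate metabolism. They were taken from the 733 genes of the deposited stem table, every one of which the authors had marked as down-regulated in *cep1*. A gene was included when its gene ontology (GO) biological process terms contained carbohydrate metabolic process, which held for 38 genes. Of these, 14 were left out because they also carried terms for lipid metabolism, responses to abscisic acid or water deprivation, or oxidoreductase, transporter or DNA-binding functions, and *CESA10* was left out by name. The direction of the difference was therefore fixed by the choice of the genes, and only its size could vary among them.

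The libraries came from mature main stems of *Arabidopsis thaliana*, 1 from *cep1* and 1 from the WT, with no replicates. The *cep1* plants are a single homozygous T-DNA line with its insertion in the third exon of *CEP1*, a papain-like cysteine protease gene, and the WT was Columbia-0. The labels place both stems at 25 d after flowering, without treatment, in a greenhouse at 20 °C with 16 h of light and 8 h of darkness, whereas the methods of the study give a higher temperature and matched the stems by developmental stage, which *cep1* reached later. With 1 library per genotype no difference could be compared with the variation among plants, no test was possible, and the genotype cannot be told apart from the sample. The labels do not say how many plants gave the RNA.

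The library totals, recovered from counts, lengths and FPKM (reads scaled to gene length and sequencing depth), were 22077141 reads for *cep1* and 20962056 for the WT. The deposited values do not show which reads these totals count. *CEP1* itself had 15 reads in *cep1* against 1269 in the WT, a log2 ratio of -6.48. The direction matches the label of the mutant library, but it was fixed by the choice of the table and is no independent check. All 11 seed storage and oleosin genes of a marker list were in the table, with 86610 reads in the WT, which is 0.413% of the library, and no read in *cep1* for any of them. Among further genes of seed oil bodies and storage vacuoles, looked up after their values were seen, some had reads in *cep1* and some had none. There were 137 against 1669 in the WT for *OL2*, 15 against 2275 for AT3G01570 and 2 against 291 for *TIP3-1*. There were 0 against 2755 for *OL3*, 0 against 1048 for *PAP85* and 0 against 475 for *PXG1*. A part of the WT reads thus came from transcripts that mark seeds, in a library labelled as stem, and the part of this in the results given here was not tested. Genes that define stem tissue and lie outside the table were not analysed here. In RNA from whole stems, fewer cells of a type and less RNA per cell cannot be told apart.

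Plants move carbon between organs as sucrose, store it as starch, and build it into walls as cellulose, hemicelluloses and pectins. Activated sugars, above all UDP-glucose, link these routes, since sucrose synthase makes UDP-glucose from sucrose and glycosyltransferases pass the sugar on to wall polymers or to small molecules. Glycoside hydrolases and pectinesterases work in the other direction, trimming polymers or freeing sugars from glycosides. In maturing stems this metabolism supplies the secondary walls of fibres and vessels, while the glyoxylate cycle is best known for turning stored oil into sugar in seedlings.

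The 23 genes held 14601 reads in *cep1*, or 0.0661% of that library (95% interval after Wilson, 0.0651 to 0.0672%). In the WT they held 52469 reads, or 0.250% (0.248 to 0.252%). Their summed reads were 3.78-fold lower in *cep1*. The intervals given here describe counting error alone, because there is 1 library per genotype. The reads carry no molecular identifiers, so copies of 1 molecule may be counted more than once and the intervals may be too narrow. The median log2 ratio of *cep1* to WT, computed from reads per library total, was -2.45 over the 23 genes, which is the value of *GBSS1*, and -2.10 over the 733 genes.

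A difference of at least 4-fold was found for 13 of the 23 genes, against 53.8% of the 733, and for all 13 the whole counting interval lay beyond 4-fold, against 47.5% of the 733. There was a difference of at least 8-fold for 8 of the 23, against 33.0%. The shares of 56.5% at 4-fold and 34.8% at 8-fold among the 23 were close to those of the whole table, although with the authors' normalization the share of the table at 4-fold was 46.8%. No read in *cep1* was found for 3 of the 23, against 8.32% of the table, and no further gene of the 23 had 3 reads or fewer, against 12.1% of the table with at most 3 reads. The genes with reads in *cep1* had log2 ratios from -4.23 to -1.25, so that no value lay between these 20 genes and the 3 without reads.

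**Figure D1:**
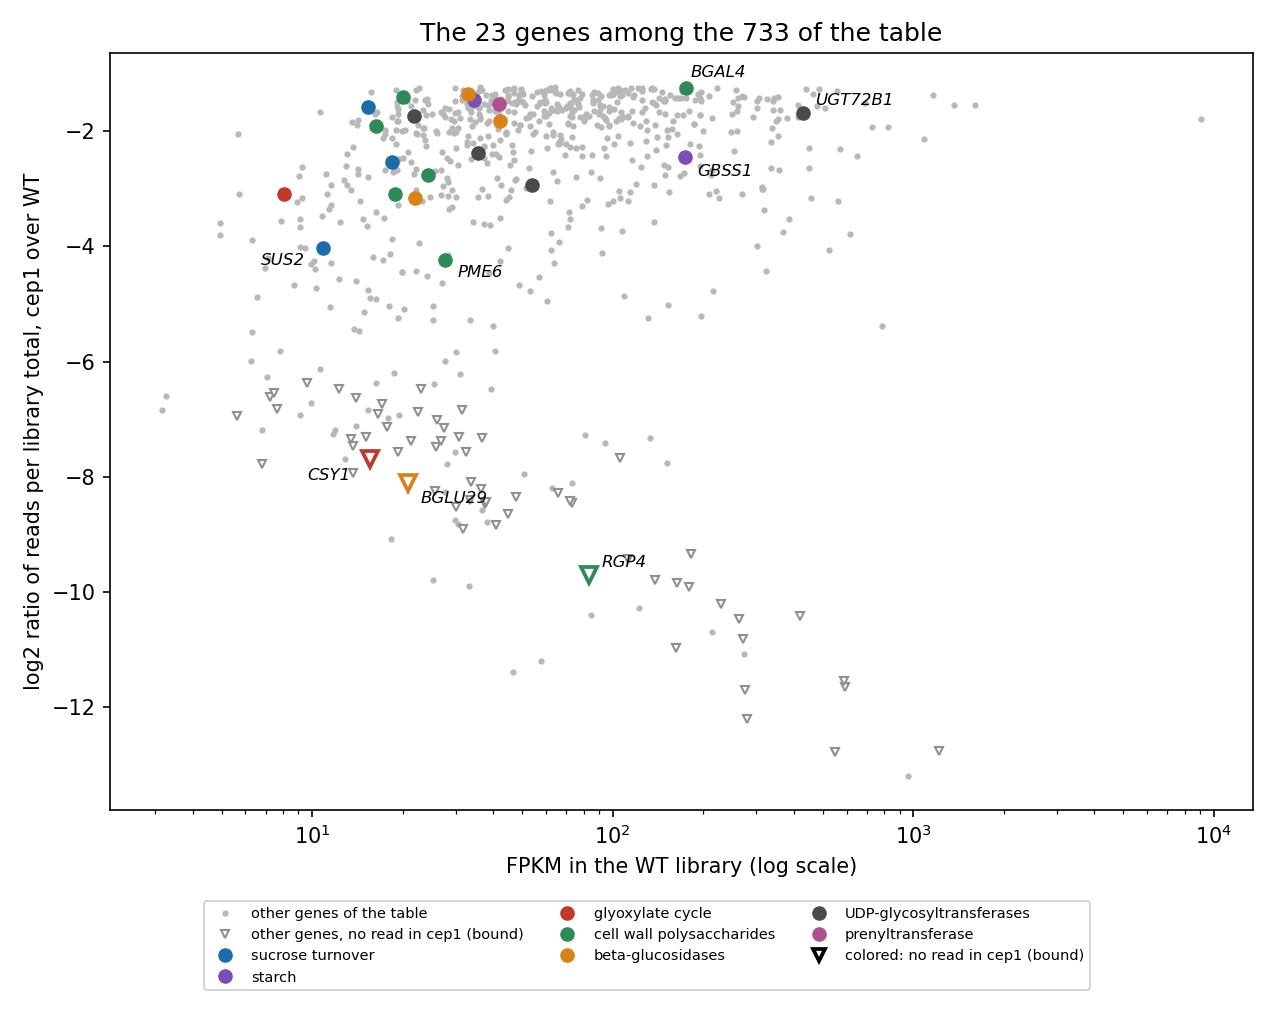
Log2 ratio of reads per library total (*cep1* over WT, vertical axis) against FPKM in the WT (horizontal log axis) for the 733 genes of the table, with the 23 carbohydrate metabolism genes coloured by role. Triangles are genes without a read in *cep1*, drawn at the bound given by 3 reads. The 20 genes with reads in *cep1* lie between -4.23 and -1.25, and *RGP4*, *BGLU29* and *CSY1* lie lower, among the other genes without reads.

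The genes without a read in *cep1* were *RGP4*, *BGLU29* and *CSY1*, which belong to different routes. *RGP4* (AT5G50750) lies on chromosome 5 from 20640992 to 20642660, *BGLU29* (AT2G44470) on chromosome 2 from 18354186 to 18358679, and *CSY1* (AT3G58740) on chromosome 3 from 21720773 to 21723790. These are the coordinates of the deposited table, whose genome build is not given in the sources used here. *RGP4* had 2371 reads in the WT, an FPKM of 83.2, and was 832-fold lower in *cep1* when its count of 0 is set to 3 reads. The exact 95% interval is 2-sided and allows more than 3 reads for a count of 0. Its limit was a 676-fold difference, which is the more cautious value. *BGLU29* had 782 reads in the WT (FPKM 20.9) and was 275-fold lower against 3 reads, with 223-fold as the limit of the exact interval. *CSY1* had 586 reads in the WT (FPKM 15.5) and was 206-fold lower against 3 reads, with 167-fold as that limit. Taken as 3 reads, a count of 0 in *cep1* stands for a share of 1.36e-05% of that library, so that low expression of these genes cannot be told from none.

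RGP4 belongs to the reversibly glycosylated polypeptides, whose active members convert UDP-arabinopyranose to the furanose form used in wall arabinans. By its RefSeq note, recombinant RGP4 lacked this activity in vitro and its gene is expressed during seed development. BGLU29 is a family 1 β-glucosidase without a note, and CSY1 is a peroxisomal citrate synthase whose note places its expression in siliques and developing seeds. Of the 12 genes among the 23 that have such a note, *SUS2* was the third whose note names seeds, and it had few reads in *cep1*. Absence of reads in *cep1* was shared by 61 genes of the table, these 3 and the 11 seed markers included.

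Sequences upstream of these 3 genes are shown because the genes share the absence of reads in *cep1*. They are the 250 bases before the annotated start of each gene in RefSeq TAIR10.1, with no other annotated gene in the window. Capitals mark matches, on either strand, to the RY core CATGCA, which is bound by B3 factors of seed maturation, or to TATCCA, an element described in sugar-repressed amylase promoters of rice.
*RGP4* (chr5:20640742-20640991, forward strand): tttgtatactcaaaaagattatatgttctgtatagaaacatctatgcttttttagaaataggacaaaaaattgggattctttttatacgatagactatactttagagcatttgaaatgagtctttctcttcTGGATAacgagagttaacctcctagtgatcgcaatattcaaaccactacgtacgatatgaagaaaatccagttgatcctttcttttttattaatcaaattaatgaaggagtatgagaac
*BGLU29* (chr2:18353936-18354185, forward strand): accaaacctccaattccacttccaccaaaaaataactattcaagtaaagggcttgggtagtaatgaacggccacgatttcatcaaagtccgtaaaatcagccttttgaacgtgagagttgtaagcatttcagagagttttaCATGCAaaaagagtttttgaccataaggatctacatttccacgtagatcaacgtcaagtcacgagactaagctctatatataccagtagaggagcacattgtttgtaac
*CSY1* (chr3:21723791-21724040, reverse strand): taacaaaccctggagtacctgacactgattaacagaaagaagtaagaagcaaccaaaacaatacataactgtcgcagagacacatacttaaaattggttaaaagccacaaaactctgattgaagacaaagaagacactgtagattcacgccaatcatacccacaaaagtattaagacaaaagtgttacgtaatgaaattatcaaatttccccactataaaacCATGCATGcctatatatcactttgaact
The RY core was present once upstream of *BGLU29*, 109 bases before the start, and as 2 overlapping copies upstream of *CSY1*, 28 and 26 bases before it. In *RGP4* no match to the RY core was found in this window, and TATCCA lay on the reverse strand, 119 bases before the start. A match is only a run of letters and does not show that a factor binds there.

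Over all the 23 genes the RY core was found upstream of 4 (*BGLU29*, *CSY1*, *UGT71C1* and *BGLU11*), against 8.43% of 27443 protein-coding nuclear genes and 15.2% of the 690 such genes in the table. TATCCA was found upstream of 6 (*RGP4*, *PME6*, *CSLB3*, *UGT75D1*, *UGT72B1* and *AMY2*), against 13.6% of all genes and 12.5% of the table. The window of *AMY2* overlaps another annotated gene. The G-box CACGTG was found upstream of none of the 23, against 6.49% of all genes and 12.3% of the table. The evening element AAATATCT was found upstream of *SPS2* alone, against 4.79% of all genes and 3.77% of the table. *UGT71C1*, with 3 copies of the RY core, had reads in both libraries.

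The 3 genes of sucrose turnover were lower in *cep1*. *SUS2*, the only one of them whose enzyme cleaves sucrose, was lower by more than *SPP3B* and *SPS2*, whose enzymes make it. By its RefSeq note, some reports find *SUS2* expressed only in seeds and others find it raised in leaves short of oxygen. *SUS2* (AT5G49190, chromosome 5, 19943282 to 19947189 in the table), a sucrose synthase that splits sucrose into UDP-glucose and fructose, had 37 reads in *cep1* against 572 in the WT, with FPKM of 0.667 and 10.9. Its log2 ratio was -4.03 (exact 95% interval, -4.55 to -3.54), a 16.3-fold difference and the fifth lowest of the 23. *SPP3B* (AT3G52340), a sucrose phosphatase that carries out the last step of sucrose synthesis, had 114 and 626 reads in *cep1* and the WT, respectively (FPKM 3.20 and 18.5), a log2 ratio of -2.53 (-2.83 to -2.24). *SPS2* (AT5G11110), a sucrose phosphate synthase, had 407 and 1149 reads (FPKM 5.16 and 15.3), a log2 ratio of -1.57 (-1.74 to -1.41).

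The counting intervals of these genes did not overlap, and their levels in the WT lay close together, with FPKM between 10.9 and 18.5. They were further apart in *cep1*, in which *SPS2* had 7.72 times the FPKM of *SUS2*. *SPP3B* is named SPP2 in RefSeq. Of 6 sucrose synthase genes, 2 were in the table, *SUS2* and *SUS3*, and *SUS3*, which was left out by its other GO terms, had 180 reads in *cep1* against 1511 in the WT. Of 8 sucrose phosphate synthase and phosphatase genes 2 were in the table, and of 10 invertase genes, whose enzymes split sucrose into glucose and fructose, there were 0. Family members that the table does not hold were not analysed here, and the table says nothing of their direction.

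For starch, *GBSS1* (AT1G32900), the granule-bound synthase that makes amylose, was the more abundant of the genes and differed more. Its position in the table is 11920390 to 11923766 of chromosome 1, and it had 1546 reads in *cep1* against 8005 in the WT, with FPKM of 31.9 and 174. The log2 ratio was -2.45 (-2.53 to -2.37), a 5.45-fold difference with a narrow interval because of the large counts. *AMY2* (AT1G76130), an α-amylase that cuts within starch chains, had 414 and 1078 reads (FPKM 12.6 and 34.5) and a log2 ratio of -1.46 (-1.62 to -1.29).

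Of 16 genes of starch synthesis, *GBSS1* was the only one in the table of down-regulated genes. Of 24 genes of starch degradation 2 were in it, *AMY2* and the β-amylase gene *BAM1*. *BAM1* was left out of the 23 because of a further GO term and had 4187 reads in *cep1* against 11221 in the WT, a log2 ratio of -1.50. Thus the synthetic and the degradative side of starch metabolism were each represented by few genes. Neither of the lists for raffinose and trehalose metabolism held one of the 23, with 1 of 9 galactinol and raffinose genes (*RFS5*) and 0 of 19 trehalose genes in the table.

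The glyoxylate cycle was represented by *CSY1* and *ICL*, and their reads together were 22.3-fold lower in *cep1*. *ICL* (AT3G21720), isocitrate lyase, which takes isocitrate past the steps that release carbon dioxide, had 45 reads in *cep1* against 366 in the WT. Its FPKM of 0.939 and 8.04 made it the least abundant of the 23 in the WT, and its log2 ratio was -3.10 (-3.58 to -2.65). Of 12 genes of the glyoxylate cycle and gluconeogenesis these were the only 2 in the table, which did not hold the malate synthase gene *MLS*. Both are assigned to the peroxisome in the deposited annotation, which named that compartment for 8 of the 733 genes.

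**Figure D2:**
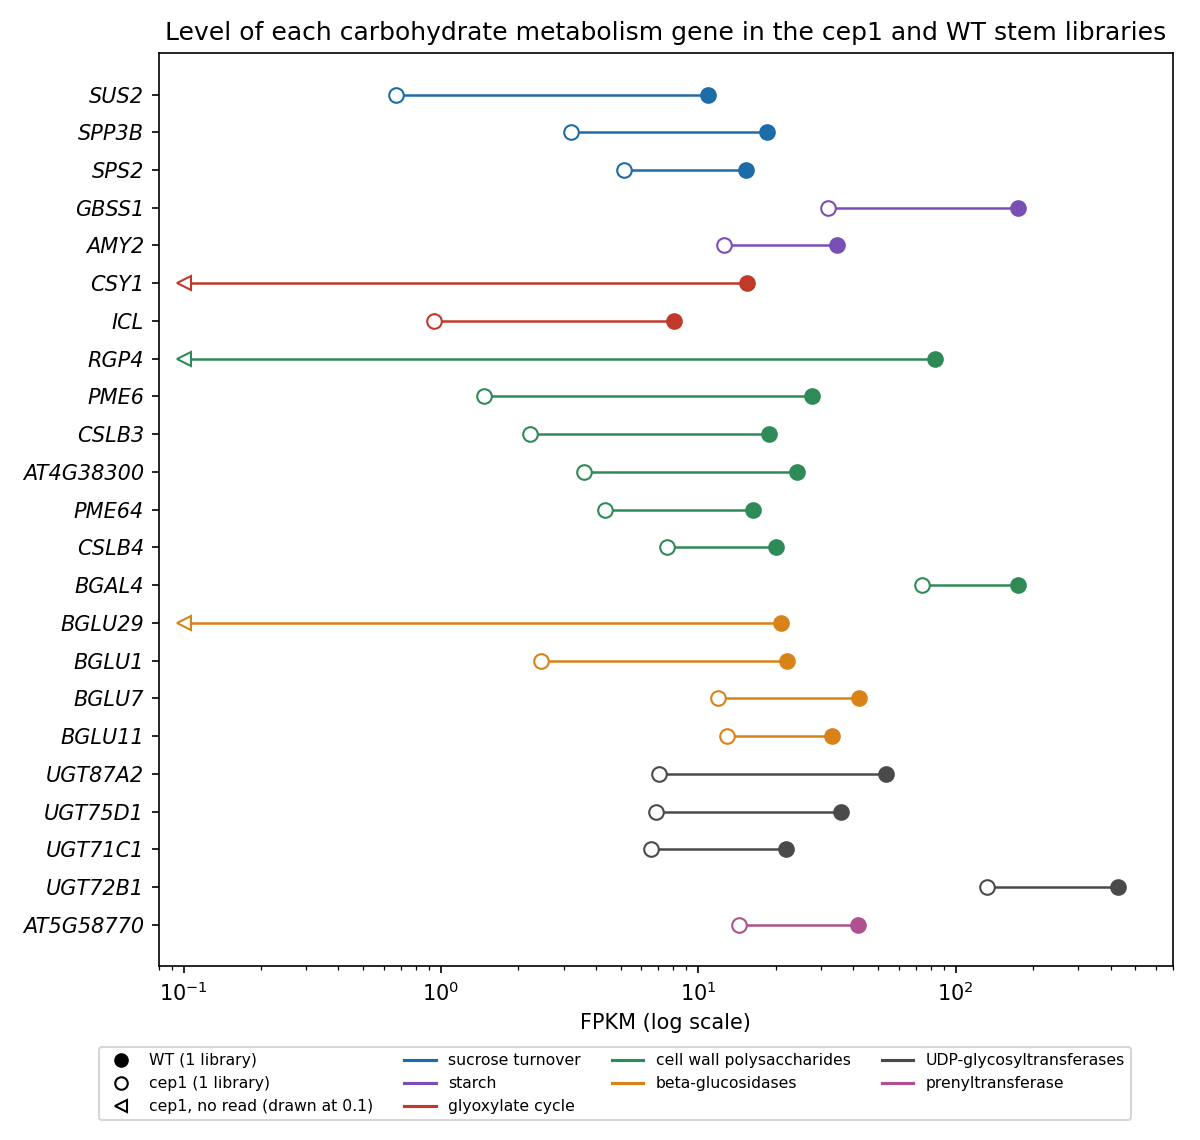
FPKM of the 23 genes (horizontal log axis) in the *cep1* library (open symbols) and the WT library (filled circles), with 1 library per genotype and a line joining both values of a gene. Genes are grouped by role, and open triangles mark genes without a read in *cep1*, drawn at 0.1 FPKM. WT values ran from 8.04 FPKM for *ICL* to 428 FPKM for *UGT72B1*.

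Genes grouped under wall polysaccharides were the most numerous, with 7 of the 23, and their log2 ratios ranged from the bound of *RGP4* to -1.25. *RGP4* was placed among them by its family, whose active members convert a UDP-sugar, and it is not known here to act on a polysaccharide. The reads of the 7 genes together were 3.37-fold lower in *cep1* (3.27 to 3.48), a value carried largely by the abundant *BGAL4*. The study reports genes of cellulose and xylan synthesis as up-regulated in *cep1*, and a table of down-regulated genes cannot hold them. These 7 genes therefore do not stand for all wall synthesis. *PME6* (AT1G23200, chromosome 1, 8227178 to 8229582 in the table), a pectinesterase, which removes methyl groups from the pectin homogalacturonan, had 62 reads in *cep1* against 1108 in the WT, with FPKM of 1.47 and 27.7. Its log2 ratio of -4.23 (-4.63 to -3.86) was the lowest of the 20 genes with reads in *cep1*. The other pectinesterase gene, *PME64* (AT5G64640), had 196 and 700 reads (FPKM 4.33 and 16.3) and a log2 ratio of -1.91 (-2.15 to -1.68), which did not overlap with that of *PME6*. PME6 is known for modifying the pectin of the seed coat and its mucilage. A search of RefSeq symbols for the name PME returned 10 genes, which did not include *PME6* and *PME64*, and the 1 of them in the table, AT4G12390, is described as a pectinesterase inhibitor.

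The cellulose synthase-like genes *CSLB3* (AT2G32530) and *CSLB4* (AT2G32540) are neighbours on chromosome 2, 971 bp apart in TAIR10.1, and encode glycosyltransferases related to cellulose synthases. They had almost the same number of reads in the WT, 955 and 957, but 118 and 378 in *cep1*, respectively. Their FPKM were 2.21 and 7.55 in *cep1*, against 18.8 and 20.1 in the WT. The log2 ratios of -3.09 (-3.38 to -2.81) and -1.41 (-1.59 to -1.24) did not overlap within counting error, so adjacent genes with nearly equal WT counts differed in the size of their ratio. Their coding sequences are 88.8% identical over 2268 bp, and reads from stretches that are alike could have been assigned to either gene. Of 30 cellulose synthase-like genes by RefSeq symbol, these were the 2 in the table.

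Of the remaining wall genes, AT4G38300 held the median of the group and *BGAL4* the ratio closest to 0. AT4G38300, a glycosyl hydrolase family 10 gene of the family of xylanases, had 66 reads in *cep1* against 424 in the WT (FPKM 3.58 and 24.3), a log2 ratio of -2.76 (-3.16 to -2.38). It is 94.3% identical over 790 bp to AT4G38650, which is not in the table, and its reads are uncertain for that reason. *BGAL4* (AT5G56870), a β-galactosidase, had 4089 and 9204 reads (FPKM 74.0 and 175), and its log2 ratio of -1.25 (-1.30 to -1.19) was also the closest to 0 of all 23. It was the only one of 15 β-galactosidase genes in the table. None of 30 xyloglucan endotransglucosylase/hydrolase genes, whose enzymes cut and rejoin xyloglucan, was in it.

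The 4 β-glucosidase genes of the 23 were also the only 4 genes of the table with the GO term β-glucosidase activity, out of 40 *BGLU* genes found by RefSeq symbol. These family 1 glycoside hydrolases release glucose from glycosides such as those of hormones, defence compounds and monolignols. Their levels in the WT were alike, with FPKM from 20.9 to 42.0, whereas in *cep1* they ran from 0 to 12.9. Besides *BGLU29*, *BGLU1* (AT1G45191) had 90 reads in *cep1* against 768 in the WT (FPKM 2.45 and 22.0), a log2 ratio of -3.17 (-3.50 to -2.85). *BGLU7* (AT3G62740) had 397 and 1330 reads (FPKM 11.9 and 42.0), a log2 ratio of -1.82 (-1.98 to -1.66), and *BGLU11* (AT1G02850) had 492 and 1201 reads (FPKM 12.9 and 33.1), a log2 ratio of -1.36 (-1.52 to -1.21). The family thus held genes near both ends of the range, and the intervals of the 3 genes with reads in *cep1* did not overlap.

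The 4 UDP-glycosyltransferase genes, whose products attach sugars to hormones, phenolics and xenobiotics, all had reads in *cep1*. *UGT72B1* (AT4G01070), which lies on chromosome 4 from 461592 to 463556 and conjugates chlorinated phenols and anilines, was the most abundant of the 23 genes in both libraries, with 5010 reads in *cep1* against 15364 in the WT. Its FPKM was 133 in *cep1* and 428 in the WT, which ranked 29 of 733 in the WT. The log2 ratio was -1.69 (-1.74 to -1.65), a 3.23-fold difference.

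*UGT87A2* (AT2G30140), which acts on flowering time through *FLOWERING LOCUS C*, had 242 reads in *cep1* against 1764 in the WT (FPKM 7.02 and 53.9), a log2 ratio of -2.94 (-3.14 to -2.75), the lowest of the 4. *UGT75D1* (AT4G15550) had 264 and 1302 reads (FPKM 6.88 and 35.7), a log2 ratio of -2.38 (-2.57 to -2.18). *UGT71C1* (AT2G29750) had 286 and 902 reads (FPKM 6.58 and 21.8), a log2 ratio of -1.73 (-1.93 to -1.54). The latter 3 had nearly the same FPKM in *cep1*, between 6.58 and 7.02, so that the order of their ratios followed their WT levels. The intervals of *UGT71C1* and *UGT72B1* overlapped, and their decreases could not be told apart within counting error.

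AT5G58770, annotated as a dehydrodolichyl diphosphate synthase, was the remaining gene. Enzymes with that activity build the lipid carrier on which sugars are assembled for protein glycosylation, and whether the product of this gene does so was not tested. It had 348 reads in *cep1* against 955 in the WT (FPKM 14.4 and 41.7), a log2 ratio of -1.53 (-1.71 to -1.35).

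**Figure D3:**
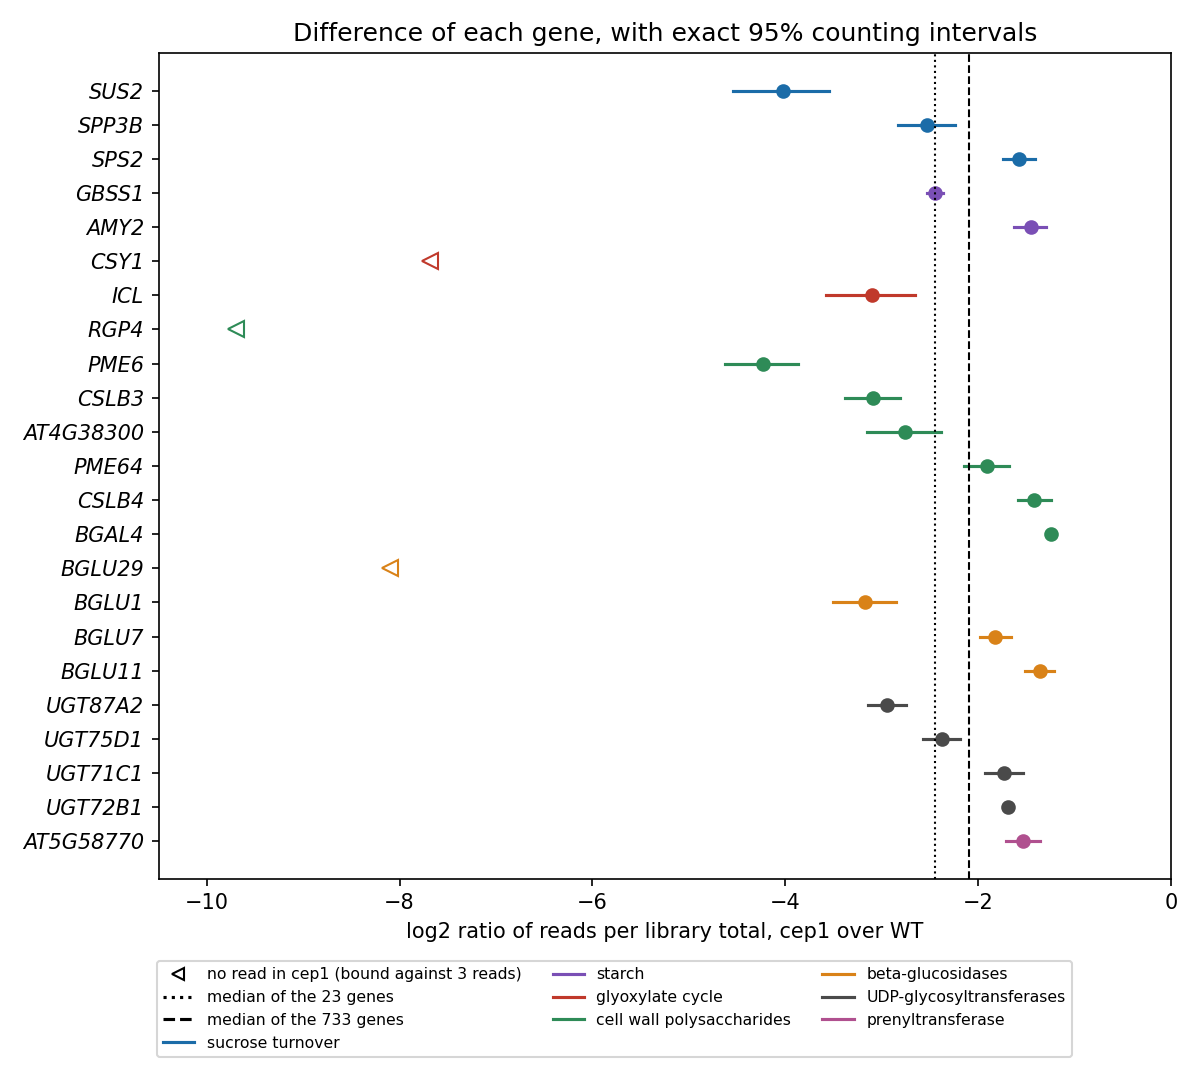
Log2 ratio of reads per library total (*cep1* over WT) for each of the 23 genes, grouped and coloured by role, with horizontal bars for the exact 95% counting intervals. Triangles are bounds against 3 reads for genes without reads in *cep1*, and the vertical lines are the medians of the 23 genes (-2.45, dotted) and of the 733 genes (-2.10, dashed). Sucrose turnover, cell wall, β-glucosidase and UDP-glycosyltransferase genes lie on both sides of the lines, and both glyoxylate cycle genes lie to the left.

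By the deposited annotation all 23 genes have catalytic activity, which holds for 270 of the 733. The 23 were chosen by a GO term and by the absence of others. The shares of terms given here follow in part from that choice and only describe the genes. Transferase activity was assigned to 11 of the 23 and to 11.5% of the table, and hydrolase activity to 10 of the 23 and to 13.6% of the table, and 9 of the 12 genes of the table with UDP-glucosyltransferase activity were among the 23. The term cell wall was assigned to 4 of the 23 and to 16 of the 733, and cytosol to 5 and 51, respectively. No cellular component was given for 5 of the 23, against 34.7% of the table. The reads were unevenly divided, since *UGT72B1*, *BGAL4* and *GBSS1* held 62.1% of the reads of the 23 genes in the WT and 72.9% in *cep1*.

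Outside the CSLB pair, the closest coding sequences to the 23 genes belonged to genes that are not among them, and for *ICL* and *GBSS1* no other gene was found. *CSY1* is 87.1% identical to *CSY2*, *BGLU7* 88.0% to *BGLU8* and *BGLU29* 80.9% to *BGLU28*, and none of these relatives is in the table. In TAIR10.1, 5 of the 23 genes (AT4G38300, AT5G58770, *BGAL4*, *SPP3B* and *UGT75D1*) overlap another annotated gene, and the sources used here do not say whether strand was used in counting.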

How the data were processed

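RNA from stems was sequenced on a HiSeq 2000 instrument, with 1 library of *cep1* and 1 of the WT made with a NEBNext Ultra kit. The authors mapped the reads with TopHat v2.0.12, and the submitters' processing notes also list Bowtie2 2.2.3 and HTSeq 0.6.1. The genome build is not given in the sources used here. For each gene the deposited table gives the raw read count, the FPKM that the authors computed from length and depth, and the authors' normalized read count. The normalized counts are a signal that the authors scaled before depositing it, by 20.3 times below the raw counts in *cep1* and 22.8 times in the WT. Columns with the authors' own fold changes, p-values and calls were not used. The table holds down-regulated genes only, so no higher genes could be counted, and with 1 library per genotype no test was possible.

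For each gene with at least 1000 reads a library total was computed from its count, length and FPKM, and the median was used. In the WT, 18 of the 23 FPKM values, and in *cep1* 16 of the 20 above 0, lay within 1% of the count over length and total, and the others were larger by up to 1.15 times. Log2 ratios were taken from counts over library totals, with exact (Clopper-Pearson) 95% intervals. Scaling by the authors' normalization instead of the totals moved every ratio by 0.24 towards 0. A count of 0 was set to 3 reads, which gives a bound that leaves out the counting error of the WT reads. Precision is set by the counts, and with 1 library per genotype no spread between plants is included. The interval was tested on simulated counts drawn with counting error alone, which leaves out variation between plants and copies of 1 molecule.

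Every member was named, with reads and FPKM in both libraries. The members, the lists of genes and the motifs were chosen with earlier results of these data known. *BAM1*, *SUS3* and the CSLB comparison were described after their values were seen. List genes were matched by locus tag and families by RefSeq symbol in TAIR10.1, in which all 23 genes overlap the gene of the same tag on the same strand and 4 have the same ends. Coding sequences were compared with BLASTN 2.17.0. Alternatives were the authors' normalization, FPKM with a pseudocount of 1 or 0.1, a minimum of 20 reads in both libraries, and wider or narrower choices of genes. Python 3.11.15, numpy 2.4.6, pandas 2.3.3, scipy 1.17.1 and matplotlib 3.10.9 were used.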

Additional observations from a re-analysis of the deposited data

How the results depend on the processing

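The median log2 ratio of the 23 genes, -2.45, was -2.21 with the authors' normalization, where the median of the 733 genes was -1.86, and -2.22 from FPKM with 1 added. It was -2.14 when the 3 genes without reads in *cep1* were left out, and also with at least 20 reads in both libraries, and -2.26 when the genes with the excluded terms were kept. With those genes kept, 20 of 38 genes (52.6%) were at least 4-fold lower, against 13 of 23 (56.5%) and 53.8% of the table. That number was 13 with the authors' normalization and with either pseudocount, while the share of the table was 46.8% with the authors' normalization, 50.1% with a pseudocount of 1 and 52.9% with 0.1. With at least 20 reads in both libraries it was 10 of 20, against 43.3% of the 598 genes left in the table. Without *UGT72B1* the genes held 0.0434% of the *cep1* reads and 0.177% of the WT reads, against 0.0661% and 0.250%. For single genes, the authors' normalization moved 13 of the 23 ratios outside their counting interval, a pseudocount of 1 moved 10 and one of 0.1 moved 2, and none changed sign. No paired analysis was possible because each genotype has 1 library, and leaving out a library was not possible for the same reason. Variation between plants cannot be estimated from these libraries, and the narrow intervals of abundant genes such as *UGT72B1* reflect depth alone.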
